A study of Homo sapiens with 2 samples.

Results

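The genes of the molecular chaperones were examined for peaks of WSTF, the bromodomain protein encoded by BAZ1B, in SW620, an established human cell line from a colorectal cancer metastasis. Chromatin immunoprecipitation and sequencing gave a list of 2697 peak summits, each 1 base with a score. The members were the protein-coding genes of the RefSeq gene table whose symbols start with DNAJ, HSPA, HSPB, HSPD, HSPE, HSPH or HSP90, or read TCP1 or CCT followed by a digit. The rule found 85 such genes among 19974 protein-coding genes on chromosomes 1 to 22 and X. A summit was assigned to a gene if it fell between the gene's outer limits or no more than 1 kb outside them, and 24 summits at 25 members met this condition.

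The series holds 2 samples of the same cell line, 1 with the suffix IP in its title and 1 without, and the single list is not tied to either. Cells are described as overexpressing WSTF in the design text and as WSTF knockdown in the series title, so which of these the list reflects cannot be told apart. No control or second list was analysed, so the comparisons are between chaperone genes and other genes within the list. The score is the authors' own, taken to be a q-value of MACS2 on the −log10 scale, and it ranks summits within the list but does not measure occupancy. Sequencing depth is unknown, so the absence of a summit does not show that WSTF was absent.

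Chaperones bind unfolded proteins and help them fold, assemble, cross membranes or be degraded. HSPA proteins (the HSP70 family) work in a cycle of ATP hydrolysis that DNAJ proteins start and nucleotide exchange factors end. HSP90 proteins mature kinases and steroid receptors, and the cytosolic CCT ring and the mitochondrial HSPD1 ring enclose a folding chamber. HSPB proteins, the small heat shock proteins, hold unfolded proteins without using ATP. Many of these genes are induced by heat shock factor 1, which binds inverted repeats of the letters GAA, called heat shock elements, in their promoters.

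Chaperone genes with a summit made up 25 of 85 members (29.4%, exact 95% interval 20.0 to 40.3), and 60 had none. Over all protein-coding genes the share was 13.8% (2765 of 19974). The difference was not tested, because the list was proposed with results of these data known and no replicate lists exist. The intervals cover counting error only and treat genes as independent, although some members lie side by side and share a summit. When members with the same summit were counted once, 22 remained. The same count was not made over all protein-coding genes, so 22 has no matching share. The members were spread over 21 chromosomes and their summits over 13. Averaged over members, 14.1% of the protein-coding genes on the same chromosome had a summit, so their chromosomes were close to the genome as a whole in this respect.

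**Figure D1:**
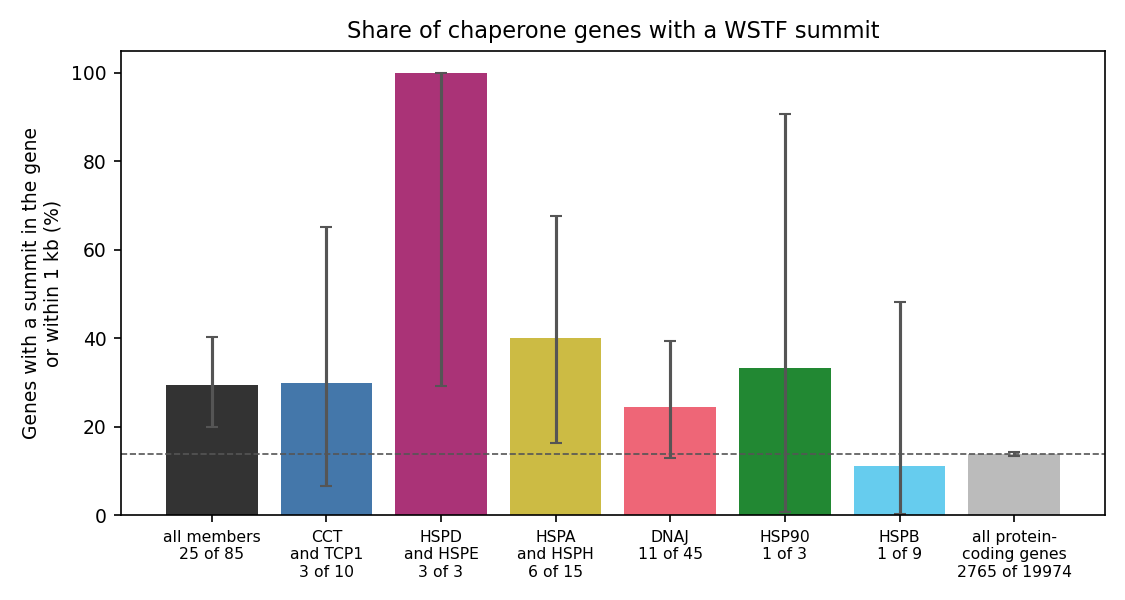
Percentage of genes holding a summit inside or up to 1 kb outside their limits, for all members, the 6 subfamilies and all protein-coding genes. Error bars are exact 95% intervals for counting error, the dashed line marks the 13.8% of all protein-coding genes, and the labels give the counts, from 3 of 3 HSPD and HSPE genes to 1 of 9 HSPB genes.

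By subfamily, summits were found at 6 of 15 HSPA and HSPH genes (40.0%, 16.3 to 67.7) and at 11 of 45 DNAJ genes (24.4%, 12.9 to 39.5). The CCT and TCP1 genes had 3 of 10 (30.0%, 6.67 to 65.2), the HSP90 genes 1 of 3, and the HSPB genes 1 of 9. The HSPD and HSPE genes had 3 of 3, all through a single summit. Within the DNAJ genes, DNAJA had 2 of 4 (50%, 6.76 to 93.2) and DNAJB 5 of 12 (41.7%, 15.2 to 72.3). DNAJC had 4 of 29 (13.8%, 3.89 to 31.7), the same share as the 13.8% of all protein-coding genes. Subfamilies are small and their intervals overlap, and no difference between them was tested.

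The scores of these summits were spread over the list. At or above its median were 9 of the 24, against 1253 of the 2435 summits at protein-coding genes. The 24 summits ran from 1.41 to 12.1, with quartiles of 2.55 and 5.28 and a median of 3.41 (order-statistic 95% interval 2.57 to 5.18). The 2435 summits at protein-coding genes had a median of 3.72. A score of at least 5 was reached by 7 member summits (29.2%), against 25.7% of the summits at protein-coding genes. Members with a summit at or above the list's median score numbered 9 (10.6%, 4.96 to 19.2), and the share over all protein-coding genes was 7.34%. The share of genes with a summit was thus above that of all genes. The interval of the member median score held the 3.72 of summits at protein-coding genes, and no difference in score was tested.

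**Figure D2:**
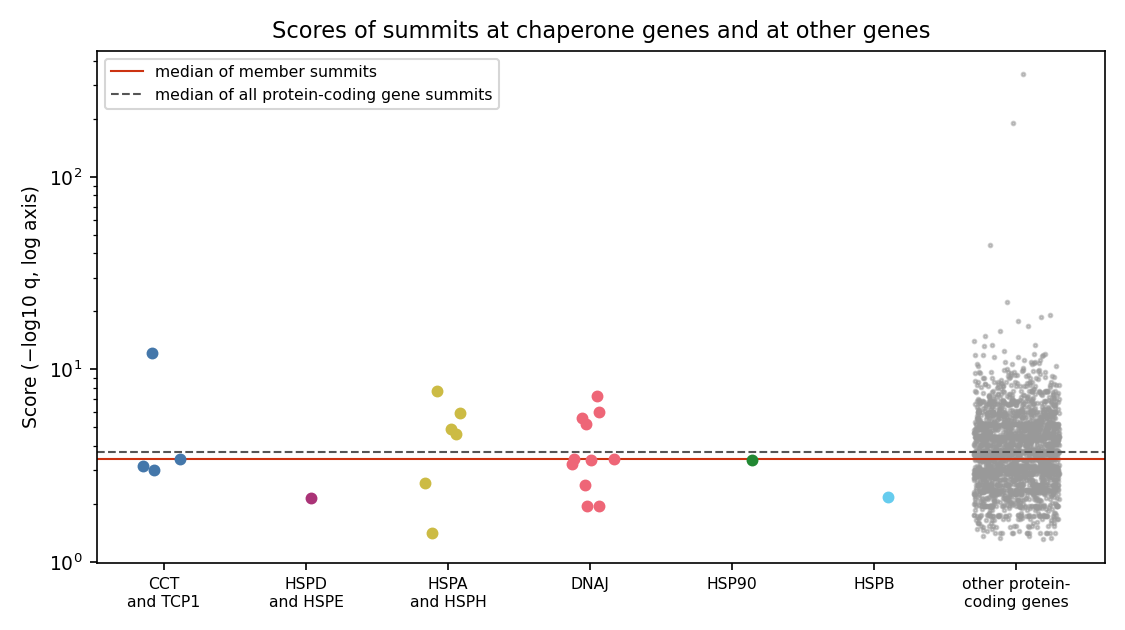
Score of each summit, as −log10 q on a log axis, for the member subfamilies and, on the right, for summits at other protein-coding genes. Each point is 1 summit, the red line is the member median of 3.41 and the dashed line the median of 3.72 over summits at protein-coding genes.

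The cytosolic chaperonin, a double ring that folds actin and tubulin, had the highest score among the members. CCT6A encodes its zeta subunit (chromosome 7, 56051765 to 56063989, hg38). A summit 78 bp outside the gene, at position 56051687, had a score of 12.1 and ranked 18 of 2697. This position is also 243 bp from PSPH, which encodes phosphoserine phosphatase. A second summit at CCT6A lay 230 bp beyond the other end, at 56064219, with a score of 3.02, a value that 91 summits share. It was 67 bp upstream of the start of SUMF2, so it lies at the neighbour's promoter.

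TCP1 encodes the alpha subunit of the same ring, and its summit lay 31 bp downstream of its transcription start on chromosome 6, at 159789571, with a score of 3.14. The start of MRPL18, a mitochondrial ribosomal protein gene, faces it 210 bp away. CCT6B, a testis-enriched relative of CCT6A, had a summit 209 bp downstream of its start at 34961251 on chromosome 17, with a score of 3.43. There the zinc finger gene ZNF830 starts 80 bp away on the other strand. No summit was found at CCT2, CCT3, CCT4, CCT5, CCT7, CCT8 or CCT8L2. Among the 8 ring subunit genes, TCP1 and CCT6A had a summit (2 of 8, exact interval 3.19 to 65.1%), a range that holds the 13.8% of all protein-coding genes.

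The mitochondrial chaperonin genes HSPD1, which encodes the ring, and HSPE1, which encodes its lid, are arranged head to head on chromosome 2 with starts 105 bp apart. One summit, at 197499674, lay within 1 kb of both and of the read-through gene HSPE1-MOB4. Its score was low at 2.16, rank 2419. It lay 600 bp inside HSPD1 and 705 bp outside HSPE1, and 166 bp downstream of a second annotated start of HSPD1. The shared interval between the genes therefore did not hold the summit. With a window of 500 bp only HSPD1 retained it.

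Of the well-known constitutive HSPA genes, HSPA8 and HSPA9 had summits and HSPA5 had none. HSPA4, HSPA13 and HSPA14 also had none, and a split by compartment was not tested. HSPA8, the abundant cytosolic form that also uncoats clathrin vesicles, had a summit 187 bp upstream of its start, at 123062323 on chromosome 11, with a score of 4.63. That position was 139 bp inside the gene's outer limits, which reach beyond the annotated start. HSPA9, the mitochondrial form that pulls imported proteins into the matrix, had one 90 bp upstream of its start, at 138575491 on chromosome 5, with a score of 4.93. Both lay in the upper part of the list, at ranks 837 and 724. HSPA5, the endoplasmic reticulum form known as BiP, had none, and its nearest summit was 44944 bp away.

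The HSPA gene with the highest score was HSPA2, which is best known from the testis. Its summits on chromosome 14 lay 304 bp upstream of the start (64540437, score 7.76, rank 121) and 984 bp upstream (64539757, score 2.57). Both are inside the outer limits of HSPA2 in the gene table, and the antisense gene HSPA2-AS1 lies at the same place. A start of HSPA2-AS1 was closer to each, at 69 bp from the first and 611 bp from the second. HSPA12A, a distant relative of the family, had a summit with a score of 5.95 deep in the gene, 71583 bp from its nearer end. That position was 209 bp upstream of a second annotated start, so the summit was again at a promoter. More than 1 summit was found at 2 members (2.35%), CCT6A and HSPA2, against 0.821% of all protein-coding genes.

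The stress-inducible HSPA genes gave little. HSPA1A and HSPA1L, a testis-enriched relative, are head to head on chromosome 6, 260 bp apart, and shared a summit at 31815150 with a score of 1.41. It ranked 2674 of 2697, 133 bp downstream of the HSPA1L start and 393 bp upstream of the HSPA1A start. HSPA1B, a near-identical copy of HSPA1A, had its nearest summit 12588 bp away. Whether reads were shared between these copies was not tested. HSPA6, which is induced only by strong stress, and HSPH1, which encodes an HSP110 exchange factor, had none within 100 kb.

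DNAJ proteins stimulate the HSPA ATPase and choose its substrates. The highest score among them was at DNAJB2, a neuron-enriched form that binds ubiquitinated proteins, where the summit lay 21 bp downstream of the start (219279387 on chromosome 2, score 7.29, rank 167). DNAJB1, the heat-inducible partner of HSPA1A, had a summit 75 bp downstream of its innermost annotated start (14517862 on chromosome 19, score 6.01). DNAJC3, a lumenal partner of BiP, had one 87 bp downstream of its start (95677226 on chromosome 13, score 5.57). These 3 summits were the only ones at DNAJ genes that lay at a start and scored at least 5.

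DNAJB12, an endoplasmic reticulum membrane protein, also scored above 5 (5.18), but its summit on chromosome 10 was 865 bp beyond the 3′ end and 22921 bp from the start. Scores between 3.24 and 3.44 were found at DNAJA1, a cytosolic partner of HSPA8, DNAJB6, which suppresses polyglutamine aggregation, DNAJC7, which binds HSP70 and HSP90, and DNAJC27, which joins a RAB-like GTPase to a J domain. Their summits lay 152, 401, 15 and 91 bp downstream of a start of the gene, in that order. The lowest scores were 2.50 at DNAJC14 and 1.95 at both DNAJA3, the mitochondrial partner of HSPA9, and DNAJB9, a partner of BiP. The DNAJA3 and DNAJB9 summits lay 109 and 174 bp upstream. A start of the non-coding gene LOC124903635 was closer to the DNAJA3 summit, at 30 bp. The DNAJB9 summit was 6 bp from a start of THAP5 on the other strand, and so closer to that gene.

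HSP90AA1, the inducible cytosolic HSP90 gene, had a summit 290 bp upstream of its inner start (102087334 on chromosome 14, score 3.38). The gene also has an annotated start far upstream, so the summit falls 6592 bp inside its outer limits. HSP90AB1, the constitutive form, had its nearest summit 3507 bp beyond the gene, 102 bp upstream of the start of SLC35B2. HSP90B1, the endoplasmic reticulum form, had none within 5 kb. The HSPB genes had a single summit, at HSPB1 (score 2.17, chromosome 7), and it lay 1576 bp downstream of the start and 43 bp from the 3′ end. Besides HSP90AB1, the other member with its nearest summit between 1 and 5 kb was DNAJB11, 3429 bp away, and that summit was 48 bp from a start of TBCCD1.

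Grouped by where the proteins work, a grouping made after the summits were seen, 4 of 8 members of the mitochondrion had a summit (exact 95% interval 15.7 to 84.3%). These were HSPA9, DNAJA3, HSPD1 and HSPE1, and the last pair is counted through a single summit. The endoplasmic reticulum had 4 of 13 (interval 9.09 to 61.4%; DNAJB9, DNAJB12, DNAJC3 and DNAJC14), without HSPA5, HSP90B1 and DNAJC10 among others. The share over all protein-coding genes was 13.8%, and with groups this small and made in this way no difference is read from it. The other 4 mitochondrial members (DNAJC11, DNAJC15, DNAJC19 and DNAJC30) act in import, membrane organisation or respiration.

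Of the 60 members without a summit, 38 had none within 100 kb, and the median distance to the nearest was 188384 bp. They included the HSP110 genes HSPA4 and HSPA4L, the endoplasmic reticulum gene HSPA13 and the ribosome-associated HSPA14. They also took in HSPB2, HSPB3, HSPB6, HSPB7, HSPB8 and HSPB9, several of them best known from muscle or testis, and HSPBP1 and HSPBAP1, which bind other chaperones and are no small heat shock proteins. Among the DNAJ genes without one were DNAJA2 and DNAJA4, the synaptic vesicle gene DNAJC5, DNAJC6, which encodes auxilin, the clathrin-uncoating partner of HSPA8, and DNAJC13, an endosomal protein gene. Members with a summit had a median length of 14635 bp and those without one 18505.5 bp, whereas protein-coding genes with a summit had 29348 bp and those without 23407 bp.

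Most summits at chaperone genes lay at a transcription start. RefSeq starts were given for 77 members, and 22 of these had a summit within 1 kb of a start (28.6%, 18.8 to 40.0), against 12.9% of the protein-coding genes with a start. Of the 22 member summits that could be placed, 20 were within 1 kb of a start of the gene and 16 (72.7%) within 250 bp. The share within 250 bp was 67.6% of the 2072 summits placed at protein-coding genes, so this closeness was shared with other genes. Within that distance 11 member summits were downstream of the start and 5 upstream, against 659 and 741 at protein-coding genes. DNAJA1, DNAJB1, DNAJB2, DNAJC3, DNAJC7, DNAJC14, DNAJC27, CCT6B, TCP1, HSPA1L and HSPD1 had theirs downstream within this distance. DNAJA3, DNAJB9, HSPA8, HSPA9 and HSPA12A had theirs upstream. Measured from either outer end of the gene, 20 members had a summit within 1 kb (23.5%, 15.0 to 34.0), against 11.6% of protein-coding genes.

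**Figure D3:**
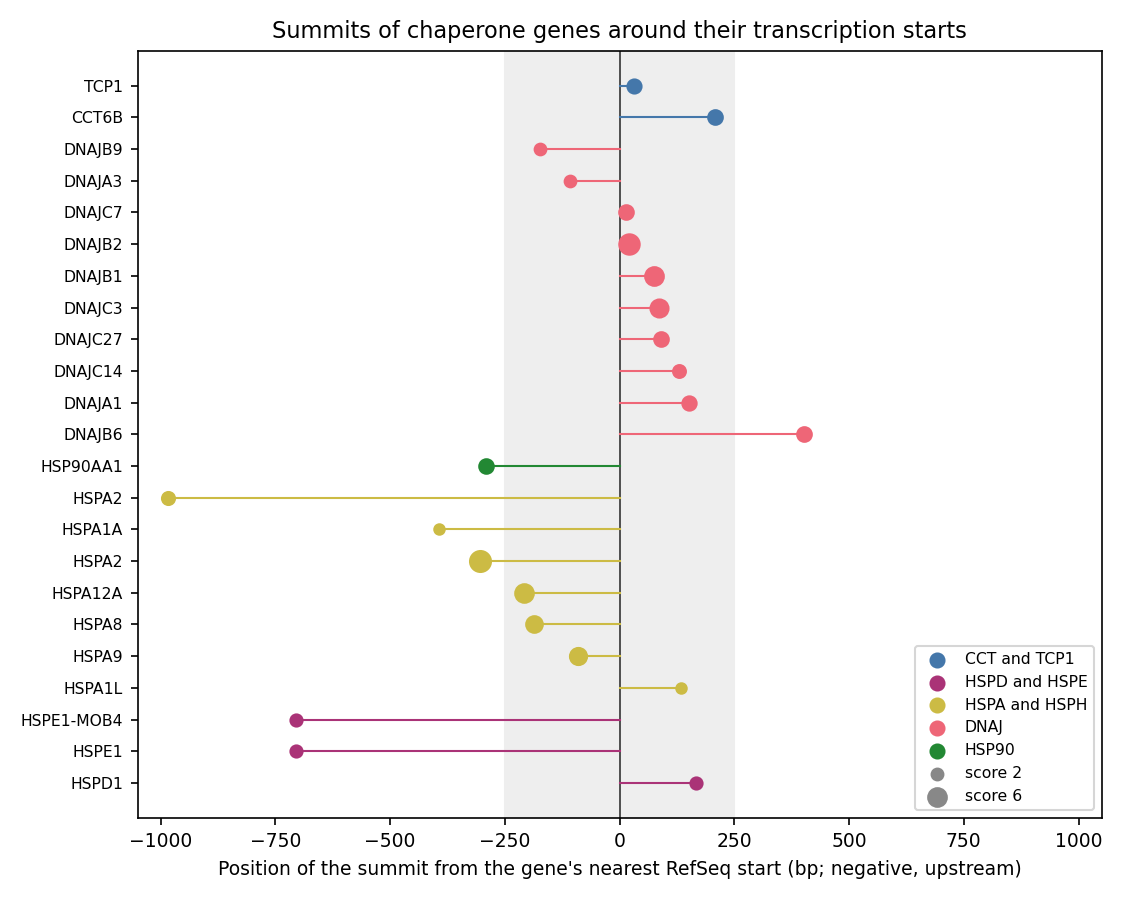
Position of each member summit within 1 kb of the nearest RefSeq start of its gene, in bp, with upstream to the left. Point size grows with the score, colours mark subfamilies and the grey band covers 250 bp on each side. In this small set, summits of HSPA genes lie mostly upstream and those of DNAJ genes mostly downstream, and this difference was not tested. Both HSPA2 summits are closer to a start of HSPA2-AS1. The points of HSPA1A and HSPA1L are the same summit, upstream of HSPA1A and downstream of HSPA1L.

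Some of these promoters are shared between genes on opposite strands. A coding start on the other strand within 1 kb was found for 19 of the 77 members, and 10 of these had a summit within 1 kb of the facing start (52.6%, 28.9 to 75.6). The share was 22% over the 2147 protein-coding genes arranged in this way. The 10 were DNAJA1, DNAJB9, DNAJC7, TCP1, CCT6B, HSPA1A, HSPA1L, HSPD1, HSPE1 and HSPE1-MOB4, and they held 7 summits, since the last 5 share 2 of them. DNAJA1 faces APTX, a DNA repair gene, 153 bp away, and DNAJC7 faces NKIRAS2 at 137 bp. CCT3, CCT4, DNAJB11, DNAJC17, DNAJC30 and DNAJC5G also face another coding start within 1 kb and had no summit. DNAJB1, HSP90AA1 and HSPA12A have a facing gene at their outermost start, and their summits lay at another start. Among the 58 members without a facing start, 9 had a summit within 1 kb of a start (15.5%, 7.35 to 27.4), against 11.4% of such protein-coding genes. Of the 24 member summits, 9 (37.5%) lay in or near more than 1 protein-coding gene, against 19.8% of all summits at such genes. These shares are not on equal terms, because a summit near more genes has more chances to touch a member. No difference is read from them.

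**Figure D4:**
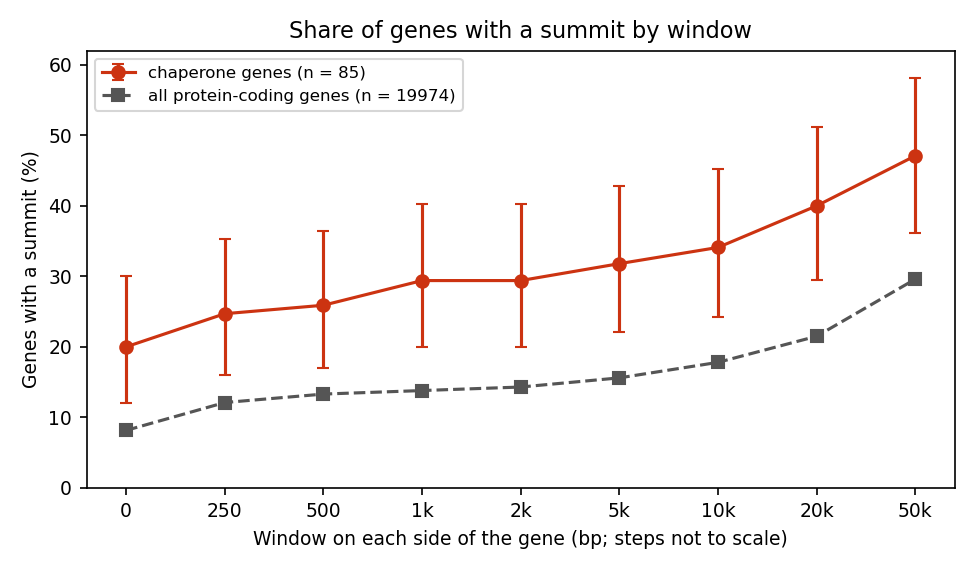
Share of genes with a summit, in percent, as the window on each side of the gene widens from 0 bp to 50 kb, for chaperone genes (red, with exact 95% intervals) and all protein-coding genes (grey). The shares were 20.0% and 8.15% inside the gene and 47.1% and 29.6% with 50 kb.

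The sequences before the starts were then read from the RefSeq promoter table (GRCh38.p14), whose windows reach from 250 bp before to 50 bp after a start. Of the members, 77 were in that table, with 100 windows. The first set shows promoters with heat shock elements, 5 at genes with a summit and, last, HSP90AB1 without one. Each is printed 5′ to 3′ in the direction of the gene and ends at the base before the start. Capitals mark the pairs GAANNTTC and TTCNNGAA, CCAAT boxes on either strand and the E-box CACGTG.

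HSPA8, chr11:123062137-123062386, minus strand: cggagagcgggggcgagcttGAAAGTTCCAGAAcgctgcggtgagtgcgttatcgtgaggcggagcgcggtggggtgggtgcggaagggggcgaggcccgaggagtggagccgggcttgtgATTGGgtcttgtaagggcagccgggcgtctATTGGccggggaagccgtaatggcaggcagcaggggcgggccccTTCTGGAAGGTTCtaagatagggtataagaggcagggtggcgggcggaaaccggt
HSP90AA1, chr14:102087045-102087294, minus strand: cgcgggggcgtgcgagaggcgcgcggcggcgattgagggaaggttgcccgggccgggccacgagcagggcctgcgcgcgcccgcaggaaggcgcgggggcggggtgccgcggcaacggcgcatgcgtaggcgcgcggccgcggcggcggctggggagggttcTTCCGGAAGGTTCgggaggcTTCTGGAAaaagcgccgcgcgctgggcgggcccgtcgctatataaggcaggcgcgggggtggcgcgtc
HSPD1, chr2:197499841-197500090, minus strand: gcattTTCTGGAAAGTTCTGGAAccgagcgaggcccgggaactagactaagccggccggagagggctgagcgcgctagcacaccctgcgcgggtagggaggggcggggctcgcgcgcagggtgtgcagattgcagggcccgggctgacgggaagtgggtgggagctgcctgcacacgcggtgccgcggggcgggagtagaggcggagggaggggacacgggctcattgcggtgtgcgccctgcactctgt
HSPA1A, chr6:31815293-31815542, plus strand: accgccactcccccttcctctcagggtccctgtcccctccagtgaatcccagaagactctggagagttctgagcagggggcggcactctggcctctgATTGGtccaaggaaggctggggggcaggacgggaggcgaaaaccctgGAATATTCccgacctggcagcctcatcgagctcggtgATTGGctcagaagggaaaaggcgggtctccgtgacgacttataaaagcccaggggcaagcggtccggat
TCP1, chr6:159789603-159789852, minus strand: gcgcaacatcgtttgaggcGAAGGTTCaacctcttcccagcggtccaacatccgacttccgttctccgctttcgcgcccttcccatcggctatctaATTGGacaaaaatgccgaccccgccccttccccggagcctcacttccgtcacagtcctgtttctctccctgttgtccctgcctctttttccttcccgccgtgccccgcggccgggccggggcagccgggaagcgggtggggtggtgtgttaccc
HSP90AB1, chr6:44247693-44247942, plus strand: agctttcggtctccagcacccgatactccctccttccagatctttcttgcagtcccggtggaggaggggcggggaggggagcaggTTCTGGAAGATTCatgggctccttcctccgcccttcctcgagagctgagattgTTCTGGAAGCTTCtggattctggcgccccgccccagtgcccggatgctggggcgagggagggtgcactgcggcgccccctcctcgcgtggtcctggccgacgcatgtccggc

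In HSPA8 the pairs lay at −230 to −218 and at −55 to −43, counted back from the start, and the summit at −187 was 31 bp from the outer ones. In HSP90AA1 the pairs lay between −88 and −61, and the summit was 202 bp from the nearest. HSPD1 carried a run of 3 overlapping pairs from −245 to −228, on the other side of the start from its summit. HSPA1A had its pair at −106 and TCP1 at −231. HSP90AB1 had pairs at −165 to −153 and at −112 to −100 and no summit within 1 kb, so these letters occurred with and without a summit.

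A pair of either kind was present in a window of 12 of 24 members with a summit and 14 of 53 without one. Over all protein-coding genes it was present at 271 of 2315 genes with a summit (11.7%) and 2079 of 13497 without (15.4%). By window, 13.5% of all 34961 RefSeq windows held a pair. Seen from the other side, 12 of 26 members with a pair had a summit (46.2%, 26.6 to 66.6) and 12 of 51 without one (23.5%, 12.8 to 37.5), whereas for protein-coding genes the shares were 11.5% and 15.2%. The members with both were CCT6B, DNAJA1, DNAJB1, DNAJB6, HSP90AA1, HSPA1A, HSPA1L, HSPA8, HSPA9, HSPB1, HSPD1 and TCP1. HSPA1A and HSPA1L read the same stretch from opposite strands and share a summit. The HSPB1 summit lay 1576 bp downstream of its start, away from the window with the pair. In these counts the pair was more frequent at members with a summit than at those without, and at protein-coding genes as a whole it was the other way round. No test was made of either difference, and the intervals of the 2 member shares overlap. Matching letters do not show that heat shock factor 1 binds.

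The second set shows the 4 members whose summit fell inside the printed stretch where no pair was found in it.

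HSPA9, chr5:138575402-138575651, minus strand: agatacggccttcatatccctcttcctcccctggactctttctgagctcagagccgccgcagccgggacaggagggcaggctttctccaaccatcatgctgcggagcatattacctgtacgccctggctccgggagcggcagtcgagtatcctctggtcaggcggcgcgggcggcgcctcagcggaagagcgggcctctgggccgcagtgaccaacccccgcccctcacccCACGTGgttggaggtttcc
DNAJB9, chr7:108569624-108569873, plus strand: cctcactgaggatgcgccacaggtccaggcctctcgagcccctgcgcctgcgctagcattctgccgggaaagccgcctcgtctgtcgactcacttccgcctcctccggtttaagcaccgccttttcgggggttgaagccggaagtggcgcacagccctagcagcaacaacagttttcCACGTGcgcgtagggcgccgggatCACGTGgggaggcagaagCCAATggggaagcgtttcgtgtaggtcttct
DNAJA3, chr16:4425618-4425867, plus strand: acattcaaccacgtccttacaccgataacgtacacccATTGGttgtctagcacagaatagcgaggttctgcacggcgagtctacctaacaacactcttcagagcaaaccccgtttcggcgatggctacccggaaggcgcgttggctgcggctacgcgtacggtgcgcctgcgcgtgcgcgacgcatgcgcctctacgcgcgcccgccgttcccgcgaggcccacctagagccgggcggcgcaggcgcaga
HSPA12A, chr10:116742567-116742816, minus strand: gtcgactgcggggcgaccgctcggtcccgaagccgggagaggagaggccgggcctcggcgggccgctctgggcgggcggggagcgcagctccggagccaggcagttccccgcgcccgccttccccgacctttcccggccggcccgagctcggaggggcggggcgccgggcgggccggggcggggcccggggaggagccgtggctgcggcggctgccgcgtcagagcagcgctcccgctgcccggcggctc

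The HSPA9 summit at −90 lay 71 bp from the E-box at −19. The pair counted for HSPA9 is not in the printed stretch but reaches into the 50 bases after the start. DNAJB9 had E-boxes at −73 and −49 and a CCAAT box at −31, and its summit was at −174. DNAJA3 had a CCAAT box on the other strand at −213 to −209, and its summit at −109 was 100 bp from it. In HSPA12A, where the summit was at −209, none of the letters searched for capitals were found. E-boxes were found at 5 of 24 members with a summit (20.8%) and 5 of 53 without (9.43%), and at 15.5% of protein-coding genes with a summit and 10.1% of those without. In all windows the share was 7.27%.

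The third set shows BiP and its HSP90 partner, which had no summit. Capitals also cover the endoplasmic reticulum stress element, a CCAAT box with the letters CCACG 9 bases later, through which unfolded proteins in that compartment raise transcription.

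HSPA5, chr9:125241344-125241593, minus strand: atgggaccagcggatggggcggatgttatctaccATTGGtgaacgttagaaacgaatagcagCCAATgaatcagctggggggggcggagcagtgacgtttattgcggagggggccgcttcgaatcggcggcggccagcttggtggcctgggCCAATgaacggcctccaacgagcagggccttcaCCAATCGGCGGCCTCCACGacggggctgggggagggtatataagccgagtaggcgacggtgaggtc
HSP90B1, chr12:103930160-103930409, plus strand: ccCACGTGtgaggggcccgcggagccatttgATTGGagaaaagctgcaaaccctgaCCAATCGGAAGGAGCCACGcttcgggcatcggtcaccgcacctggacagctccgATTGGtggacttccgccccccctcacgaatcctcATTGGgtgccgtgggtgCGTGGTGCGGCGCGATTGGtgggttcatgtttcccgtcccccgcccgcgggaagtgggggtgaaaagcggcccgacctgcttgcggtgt

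HSPA5 had this element at −66 to −48, and HSP90B1 had it at −194 to −176 and, on the other strand, at −89 to −71. These were the only members with it (2 of 77), and 0 of the 24 members with a summit and a window held it. It was rare elsewhere, at 27 of 34961 windows (0.0772%). Among protein-coding genes it was at 3 of 2315 with a summit (0.13%) and 18 of 13497 without (0.133%), so it was equally rare in both.

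Base composition was compared in the same windows. The windows of members with a summit had a median GC content of 66.2% (quartiles 63.2 and 70.8), and those of members without one 62.5% (56.2 and 65.7). For protein-coding genes with a summit the median was 67.3%, against 62.3% for all protein-coding windows. A GC box (GGGCGG, either strand) was found at 22 of 24 members with a summit and 32 of 53 without, and at 83.1% and 61.0% of protein-coding genes. Promoter GC content therefore moved with the presence of a summit in members and in other genes alike, and its part in the member share was not tested. A CCAAT box was found at 13 of 24 members with a summit (54.2%) and 20 of 53 without (37.7%), and at 43.0% of protein-coding genes with a summit and 41.9% of those without.

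The partners of the chaperones were read from a second list of 52 genes. A summit was found at 14 of them (26.9%, 15.6 to 41.0), against the same 13.8% over all protein-coding genes. HSP90 co-chaperones had 6 of 12 (50%, 21.1 to 78.9). They were STIP1 (6.66), which bridges HSP70 and HSP90, TOMM34 (6.09), CHORDC1 (4.68), PTGES3 (3.78), which stabilises closed HSP90, SUGT1 (3.25) and FKBP4 (2.88), with scores in parentheses. For TOMM34, PTGES3 and SUGT1 the summit was 18, 117 and 118 bp upstream of the start, and for STIP1 and CHORDC1 it was 265 and 191 bp downstream.

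Folding enzymes of the endoplasmic reticulum had 3 of 6 (50%, 11.8 to 88.2). These were the lectin CANX (6.91), the disulfide isomerase gene P4HB (5.57) and PDIA4 (4.44). HSP70 partners had 2 of 14 (14.3%, 1.78 to 42.8), near the 13.8% of all protein-coding genes. They were the exchange factor genes BAG5 (3.21) and HYOU1 (1.60). Of the heat shock factors, HSF2 had a summit 115 bp downstream of a start (3.56) and HSF4 one 811 bp beyond its outer limit (3.83), while HSF1 had none. CLPB, a mitochondrial disaggregase, scored 3.19. The prefoldin and chaperonin partners, which deliver actin and tubulin to the CCT ring or act beside it, had 0 of 12 (upper limit 26.5%). That range holds the 13.8% of all protein-coding genes, and no difference between these groups was tested.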

How the data were processed

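Chromatin from SW620 cells was immunoprecipitated and sequenced. The submitters' processing notes name hg38 with MACS2 2.2.7.1, Bowtie2 2.4.4 and Trimmomatic 0.39, and the design text says that input DNA was the control for the peaks. Pooling of replicates is not stated in the sources used. The deposited list holds 1 base per summit and a value read as −log10 of the q-value, since its lowest is 1.31 and a q of 0.05 gives 1.30. No counts or coverage are held, so depth and precision per sample are unknown.

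Summits were matched to genes of the RefSeq table (GRCh38.p14, same coordinates as hg38) by outer limits, and to starts and sequences of the RefSeq promoter table, with pandas 2.3.3 and scipy 1.17.1 in Python 3.11.15. The assignment was tested on simulated positions. Intervals are exact Clopper-Pearson 95% intervals. Motifs were searched on both strands, and the pairs GAANNTTC and TTCNNGAA may overlap each other. The promoter table gave starts for 15812 protein-coding genes; CCT6A, DNAJC1, DNAJC5B, DNAJC22, DNAJC24, HSPA12B, HSPA14 and HSPB2 were not placed by start. The members and lists were chosen with earlier results of these data known, and no chance test was run. Named are all members with a summit, those with one 1 to 5 kb away, well-known members without one, and partners with a summit.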

Additional observations from a re-analysis of the deposited data

How the results depend on the processing

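Of 54 alternative values, 42 stayed close to the main value (a count within 1.5 times it, a median within its interval) and 12 did not. The 25 members with a summit became 17 when counted inside the gene (20.0%, against 8.15% of all protein-coding genes). With a 10 kb window they were 29 (34.1%, against 17.8%). They were 21 when the member had to be the nearest coding gene, a rule not applied to all protein-coding genes. Summits scoring at least 5 left 7 members, and the matching share over all protein-coding genes was not computed. Those at or above the median score left 9 (10.6%, 4.96 to 19.2), an interval that holds the 7.34% of all protein-coding genes. By that median, 6 members remained at a gene end instead of 20, 4 DNAJ genes instead of 11, 1 CCT and TCP1 gene instead of 3, and 0 in each of HSPB, HSP90, and HSPD and HSPE instead of 1, 1 and 3. The gene-end count by that median was not made over all protein-coding genes. A window of 5 kb gave 2 HSP90 genes instead of 1. Counting inside the gene or within 500 bp gave 1 HSPD and HSPE gene instead of 3, and inside the gene 6 partner genes instead of 14. Stricter scores hold fewer summits by construction. Counting members with the same summit once, and limiting summits to RefSeq starts of any gene (23 members), were chosen after seeing the data. Neither count was made over all protein-coding genes, so a steady member count does not show a steady difference from other genes. No paired analysis was possible because there is 1 list and no replicate. Depth is unknown, which limits every absence of a summit.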
